A study of Mus musculus with 20 samples.

Results

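The growth hormone, STAT5 and IGF1 axis was followed through 10 genes: Ghr, Jak2, Stat5a, Stat5b, Socs2, Cish, Bcl6, Igf1, Igfals and Igfbp3. They were taken by name as a signalling pathway, by joining probe sets to genes where the platform annotation gives exactly 1 symbol, and 10 of the 18193 genes measured, or 25 of the 45101 probe sets, belonged to it. Livers came from 20 male C57BL/6J mice, 8 weeks old and killed after a 16 h fast, with 1 Affymetrix 3' expression array per mouse. For 4 weeks, 10 mice (HFD) ate a diet with 45 kcal% fat, and 10 mice (002MSXH) ate the same diet with 0.02% of a maple syrup extract that the labels call MSXH. All had first been kept on a diet with 10 kcal% fat, and no mice on that diet alone were analysed here.

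Growth hormone from the pituitary binds the receptor GHR on hepatocytes, and the kinase JAK2 bound to the receptor then phosphorylates the transcription factors STAT5A and STAT5B. In male rodents the hormone comes in pulses, so that liver STAT5 is switched on and off within hours. STAT5 raises Socs2 and Cish, whose proteins brake the receptor, and lowers Bcl6, a repressor that binds many of the same sites. It also raises Igf1, the circulating growth factor, and Igfals, the subunit that holds IGF1 and IGFBP3 together in a large serum complex. Fasting is known to make the liver resistant to growth hormone.

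The values are on a log scale, taken as log2, and the spread between arrays was strongly compressed in the deposited table: the SD of the median gene was 1.21e-05, and 27 of 18193 genes exceeded an SD of 0.1. No folds of RNA are given for that reason. Each difference is the 002MSXH mean less the HFD mean in units of the pooled SD within diets (a standardized difference), with its 95% confidence interval. The liver label was borne out by hepatocyte genes, with Alb at 14.71 and Ttr at 14.48 on every array. The arrays of 002MSXH 4 and 002MSXH 6 stood apart: the mean level of 12 skeletal muscle genes was 8.205 and 7.609 there, against 6.347 to 6.434 on the other 002MSXH arrays and 6.349 to 6.417 in HFD. The array medians over genes of these mice, 6.9127 and 6.9120, exceeded that of each other array (6.9104 or less). Levels are tissue averages, in which fewer cells of a type and less RNA per cell cannot be told apart.

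STAT5 dimers bind a short palindrome, TTCNNNGAA, where N is any base. The RefSeq promoter windows of 9 of the 10 genes (GRCm38.p6, 250 bases before to 50 after a start) were searched for it, and Socs2 had no entry in that table. Matches stood in 5 of the 15 windows of these genes, those of Cish, Bcl6 and Igfals, while 8.3% of the 32851 windows of all genes hold at least 1. The sequences below are shown because these 3 genes are the ones with matches and all are members whose levels took part in relations over mice, and capitals mark the matches. The Cish window (chr9:107296409-107296678, plus strand) holds 2 matches, 1 at the annotated start and 1 beginning 11 bases after it, and 0.457% of all windows hold 2 or more. The downstream window of Bcl6 (chr16:23981284-23981533, minus strand) holds 3, as 0.0335% of all windows do, and the window of its upstream start holds TTCTCAGAA. The first window of Igfals (chr17:24877594-24877843, plus strand) holds 1, and its second window holds TTCCTAGAA. A match is a run of letters and was not tested as a binding site.
Cish: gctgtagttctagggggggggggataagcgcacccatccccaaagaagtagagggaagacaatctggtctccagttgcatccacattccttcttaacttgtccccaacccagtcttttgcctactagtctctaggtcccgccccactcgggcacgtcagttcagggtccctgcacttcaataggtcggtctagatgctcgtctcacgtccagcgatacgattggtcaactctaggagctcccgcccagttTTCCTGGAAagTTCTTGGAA
Bcl6: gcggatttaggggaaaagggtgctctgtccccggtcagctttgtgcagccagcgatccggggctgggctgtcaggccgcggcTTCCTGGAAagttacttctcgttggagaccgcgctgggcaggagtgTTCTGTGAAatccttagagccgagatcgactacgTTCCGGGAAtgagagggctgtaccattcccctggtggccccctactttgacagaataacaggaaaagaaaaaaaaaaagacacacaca
Igfals: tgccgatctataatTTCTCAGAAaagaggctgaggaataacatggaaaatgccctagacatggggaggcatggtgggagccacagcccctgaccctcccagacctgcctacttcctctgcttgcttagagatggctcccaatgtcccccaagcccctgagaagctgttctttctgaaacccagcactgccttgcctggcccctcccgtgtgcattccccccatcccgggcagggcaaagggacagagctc

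Setting 002MSXH against HFD addresses the effect of the extract in mice eating the high-fat diet. The feedback genes Socs2 and Cish were lower in mean in 002MSXH and their counterpart Bcl6 was higher, each by 0.80 to 0.94 SD, and the serum carrier Igfbp3 was lower by 1.10 SD. The hormone's receptor Ghr and the kinase Jak2 differed by 0.20 and 0.14 SD. None of the 10 genes passed an adjusted p of 0.05 by limma, and neither did any of the 18193 genes (0% called), while leaving out HFD 3 gave 3 genes and leaving out HFD 6, HFD 9, 002MSXH 2 or 002MSXH 3 gave 1 each. At an adjusted p of 0.10 stood 12 genes (0.066%), with none of the 10 among them. In 4 genes (0.022%) the diets did not overlap at all, and in each of the 10 genes they did. At an unadjusted p under 0.05 stood 3 of the 10, Stat5a higher and Cish and Igfbp3 lower, against 1982 genes, or 10.9%, of all. Of these, Stat5a lay below the level of the median gene, and Cish and Igfbp3 above it. Of the 10 genes, 5 were higher and 5 lower in mean, with a median standardized difference of -0.03 beside 0.07 over all genes.

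Ghr, the growth hormone receptor (chromosome 15, 3317755 to 3583352 in GRCm38.p6), ran from 11.6756 to 11.6772 in HFD with a median of 11.6764, and from 11.6759 to 11.6773 in 002MSXH with a median of 11.6765. The groups overlapped over nearly their whole range. Its standardized difference was 0.20 (interval -0.68 to 1.08, n = 10 against 10; limma adjusted p 0.902). The other probe sets of Ghr stood at -0.35 and -0.12 and followed the first over mice (Spearman's rho 0.833 and 0.919). Jak2, the receptor's kinase (chromosome 19, 29251803 to 29313095), ran from 7.6807 to 7.6810 in HFD (median 7.68095) and from 7.6808 to 7.6810 in 002MSXH (median 7.68094). HFD 2 lay below all the other mice for Jak2. The difference was 0.14 (-0.74 to 1.01; adjusted p 0.937), and it turned to -0.21 without HFD 2 and -0.01 without 002MSXH 9, while the second probe set stood at -0.73.

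Stat5a, the STAT5 gene of smallest p (chromosome 11, 100859351 to 100885169), ran from 6.84536 to 6.84577 in HFD with a median of 6.84554, and from 6.84557 to 6.84573 in 002MSXH with a median of 6.84564. The 002MSXH mice lay in the upper part of the HFD range, and HFD 5 had the highest value of all. The standardized difference was 1.26 (0.28 to 2.21), 002MSXH was higher in 84 of the 100 pairs of a mouse from each diet, and the limma p was 0.00985, adjusted 0.311. Stat5a spans 4.12e-04 from its lowest to its highest array, which is less than the distance of the array medians of 002MSXH 4 and 6 from the rest, and its sign turned when all arrays were centred on their medians (-0.55) or quantile normalized (-0.63). Without those mice the difference was 1.43, and it was 0.32 when centred and 0.075 when quantile normalized as well. The other probe set of Stat5a stood at 0.22. Both probe sets lay below the level of the median gene. Over genes above that level, 2 of the 9 members left had an unadjusted limma p under 0.05.

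Stat5b, the main STAT5 of male liver (chromosome 11, 100780731 to 100859004), ran from 8.25188 to 8.25211 in HFD (median 8.25197) and from 8.25193 to 8.25207 in 002MSXH (median 8.25201). The groups overlapped, and HFD 5 was again the highest mouse. The difference was 0.75 (-0.17 to 1.65; limma adjusted p 0.559). It also turned under both scalings of all arrays, to -0.67 when centred and -0.20 when quantile normalized.

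**Figure D1:**
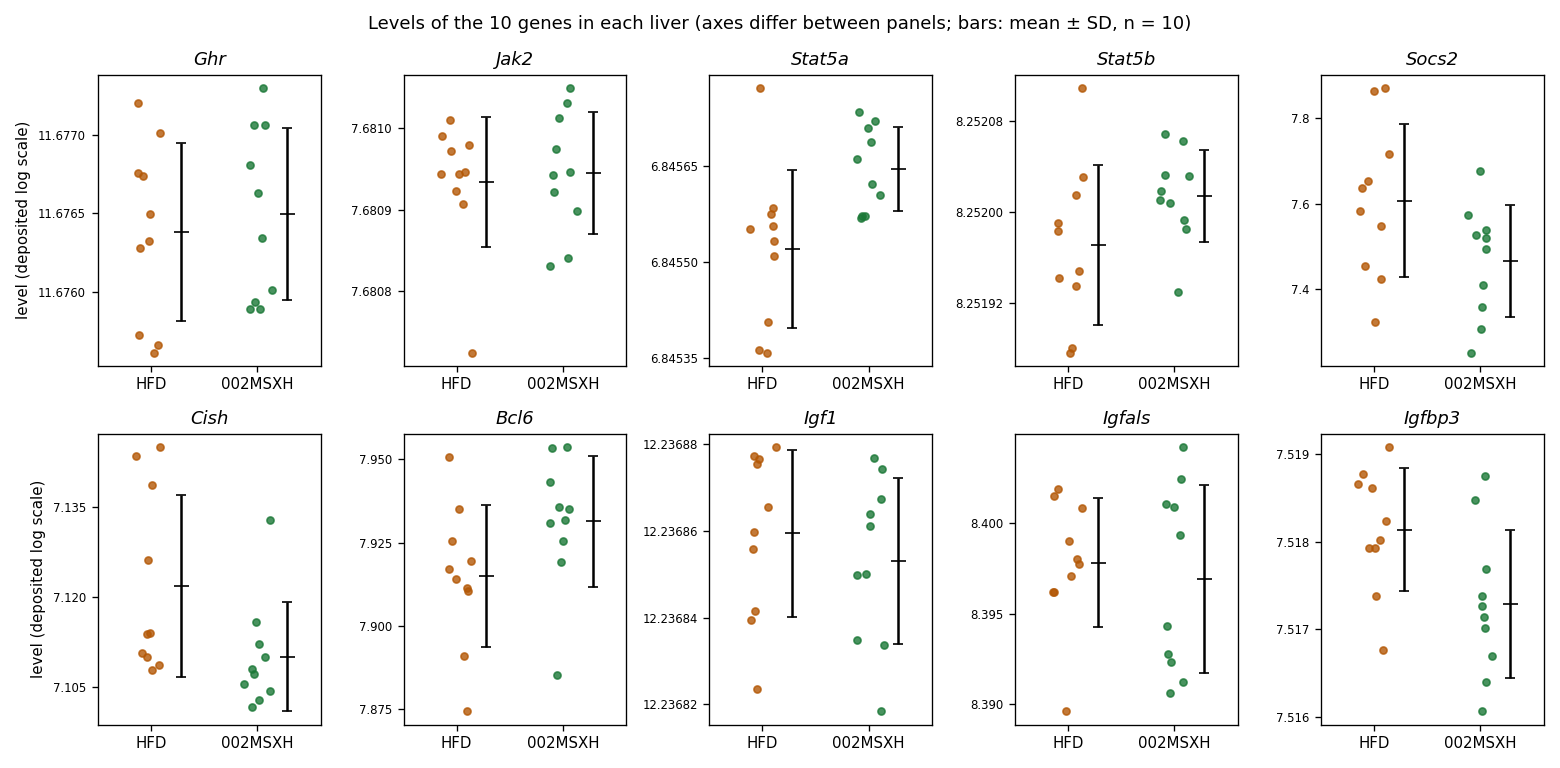
Level of each of the 10 genes (deposited log scale, own axis per panel) in the 10 HFD and 10 002MSXH livers, 1 point per mouse, with mean and SD beside the points. The diets overlap in every panel; Socs2, Cish and Igfbp3 sit lower and Bcl6 and Stat5a higher in mean in 002MSXH, and none passed an adjusted p of 0.05.

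Socs2, which directs the growth hormone receptor to degradation (chromosome 10, 95383903 to 95417321), varied more between mice than 99.9% of genes. In HFD it ran from 7.324 to 7.869 with a median of 7.610, and in 002MSXH from 7.253 to 7.675 with a median of 7.507. HFD 3 and HFD 4 were the highest mice, at 7.863 and 7.869, and 002MSXH 8 and 002MSXH 6 the lowest, at 7.253 and 7.307. The standardized difference was -0.90 (-1.81 to 0.03), with 002MSXH higher in 25 of 100 pairs (limma p 0.0542, adjusted 0.472; permutation p 0.0586, two-sided). All 6 probe sets of Socs2 were lower in mean in 002MSXH, from -0.94 to -0.32. They did not all follow the probe set used: rho over mice was 0.991 for the closest of the others and -0.394 for the least close.

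Cish, a SOCS family member that is among the quickest STAT5 targets (chromosome 9, 107296659 to 107302784), ran from 7.108 to 7.145 in HFD with a median of 7.114, and from 7.102 to 7.133 in 002MSXH with a median of 7.108. Most mice lay close together, and HFD 2, 3, 4 and 5 and 002MSXH 1 lay above the rest, at 7.126 or more against at most 7.116. The difference was -0.94 (-1.86 to -0.0037), with 002MSXH higher in 20 of 100 pairs (limma p 0.0448, adjusted 0.447; permutation p 0.048). Without 002MSXH 1 it was -1.25, and 5 of the 10 genes then had an unadjusted p under 0.05.

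Bcl6, the repressor that opposes STAT5 at shared sites (chromosome 16, 23965050 to 23988866), ran from 7.874 to 7.951 in HFD with a median of 7.916, and from 7.885 to 7.954 in 002MSXH with a median of 7.933. HFD 4 and 002MSXH 1 were the lowest mice, and 002MSXH 1 lay well apart from the other 9 of its diet, whose lowest was 7.919. The difference was 0.80 (-0.12 to 1.71), with 002MSXH higher in 77 of 100 pairs (limma adjusted p 0.530), and the other probe set stood at 0.69. Socs2, Cish, Bcl6 and Igfbp3 kept their direction under both scalings of all arrays. Without 002MSXH 4 and 6 the differences were -0.78 for Socs2, -0.83 for Cish and 0.74 for Bcl6.

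**Figure D2:**
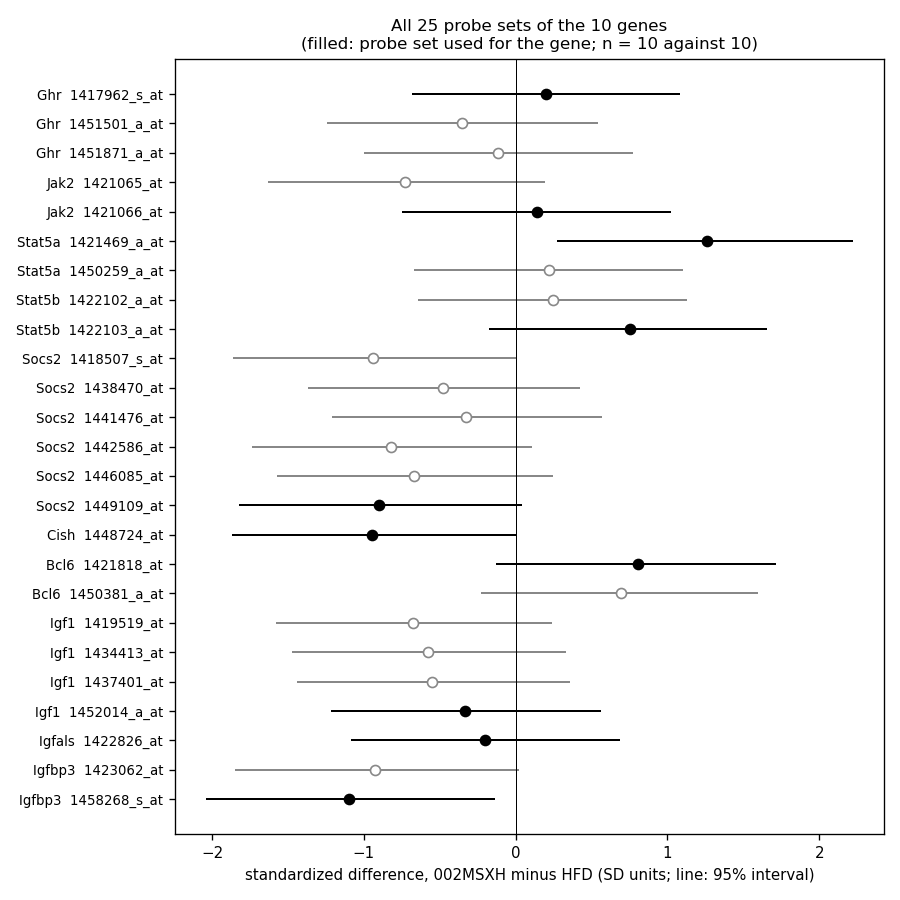
Standardized difference (002MSXH minus HFD, in SD units) with its 95% interval for each of the 25 probe sets, filled where the probe set stands for its gene. All 6 Socs2, all 4 Igf1 and both Igfbp3 probe sets lie below 0 and both Bcl6, Stat5a and Stat5b probe sets above it, while Ghr and Jak2 probe sets differ in sign.

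Igf1, the growth factor itself (chromosome 10, 87858265 to 87937047), ran from 12.23682 to 12.23688 in both diets, with medians of 12.23686 in each at this rounding. The groups overlapped fully at the probe set used, whose spread of 6.1e-05 between the extreme mice was the smallest of the 10 genes. The standardized difference was -0.33 (-1.21 to 0.56; limma adjusted p 0.821). The other 3 probe sets of Igf1 stood at -0.68, -0.58 and -0.55, with limma p from 0.138 to 0.225. Igfals, the acid-labile subunit (chromosome 17, 24877844 to 24882011), ran from 8.390 to 8.402 in HFD with a median of 8.398, and from 8.391 to 8.404 in 002MSXH with a median of 8.397. The 002MSXH mice fell into a lower and an upper set with none in between, and HFD 9 was the lowest mouse of all. The difference was -0.20 (-1.08 to 0.68; adjusted p 0.901).

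Igfbp3, the main IGF carrier of serum, which in liver comes largely from cells other than hepatocytes (chromosome 11, 7206086 to 7215498), ran from 7.5168 to 7.5191 in HFD with a median of 7.5181, and from 7.5161 to 7.5187 in 002MSXH with a median of 7.5172. Of the 5 lowest mice 4 were 002MSXH. Only 002MSXH 3, 5 and 9 lay below all HFD mice. The other 002MSXH mice lay within the HFD range, with 002MSXH 7 and 8 in its upper part. The difference was -1.10 (-2.03 to -0.14), with 002MSXH higher in 20 of 100 pairs (limma p 0.0216, adjusted 0.372; permutation p 0.0256). It was the same size without 002MSXH 4 and 6 (-1.10), and the other probe set stood at -0.93. Markers of endothelial cells, which also express Igfbp3, were lower in mean in 6 of 8 genes, with a median standardized difference of -0.42 and a mean level of 8.6567 to 8.6577 in HFD and 8.6563 to 8.6581 in 002MSXH, and their part in the Igfbp3 values was not tested. Kupffer cell and macrophage markers were higher in mean in 7 of 8, with a median of 0.13.

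The 10 genes were next compared with each other over the 20 mice. Of the 45 pairs of genes, 7 passed an adjusted p of 0.05 by both Pearson's r and Spearman's rho (permutation tests, Benjamini-Hochberg over 45), 6 of them positive and 1 negative. Socs2 and Cish varied together, with r = 0.739 and rho = 0.787 (permutation p 1.5e-04 and 3e-05, adjusted 0.00337 and 9e-04). Within diets rho was 0.855 in HFD (permutation p 0.00291) and 0.733 in 002MSXH (permutation p 0.0202). Pearson's r was 0.759 in HFD (permutation p 0.0131) but 0.497 in 002MSXH (permutation p 0.144). Leaving out the mice most distant from the Socs2 median gave r = 0.656. Of all other genes, 0.418% had a rho with Socs2 at least as far from 0.

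Cish and Bcl6 went opposite ways, with r = -0.709 and rho = -0.746 (permutation p 8e-04 and 2.9e-04, adjusted 0.009 and 0.00371). The 5 mice with the most Cish, 4 HFD and 1 002MSXH, were the 5 with the least Bcl6, and 4 of them were among the 5 with the most Socs2. Within diets rho was -0.782 in HFD (permutation p 0.0103) and -0.467 in 002MSXH (permutation p 0.18). Pearson's r was -0.598 in HFD (permutation p 0.0695) and -0.779 in 002MSXH (permutation p 0.0326). Leaving out the mice most distant from the Cish median gave r = -0.707. Since those 5 mice stood apart in Cish, the relation was computed again in the other 15, in a test added after the values were seen. There Cish and Bcl6 had r = -0.339 and rho = -0.457 (permutation p 0.214 and 0.0882), and Cish and Socs2 had r = 0.679 and rho = 0.661 (permutation p 0.00613 and 0.00905). Leaving out the mice of highest Cish narrows its range, so these values do not show what the pooled relation rests on. Without 002MSXH 4 and 6, Socs2 and Cish and also Cish and Bcl6 still passed. Socs2 and Bcl6 had r = -0.531 and rho = -0.411 (adjusted permutation p 0.0891 and 0.237).

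**Figure D3:**
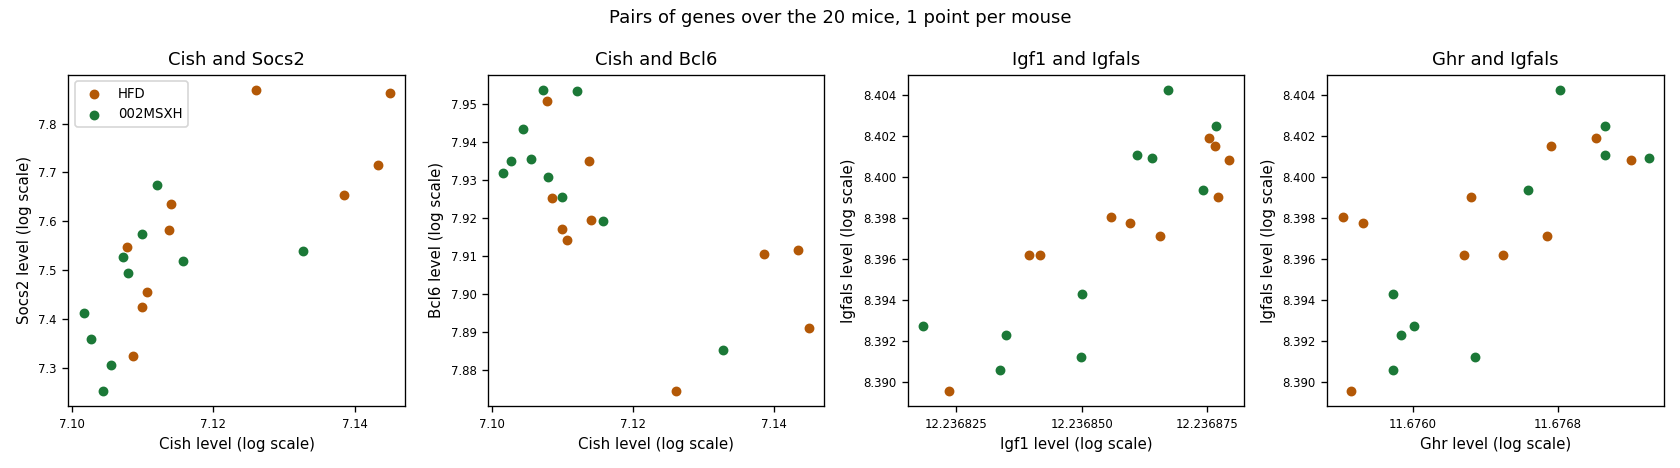
Levels (deposited log scale) of 4 pairs of genes, 1 point per mouse, HFD in orange and 002MSXH in green. Cish rises with Socs2 (rho 0.787), 5 mice combine high Cish with low Bcl6, and Igfals rises with Igf1 (rho 0.827) and with Ghr (rho 0.741).

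A second group of relations joined the receptor to the IGF1 complex. Igf1 and Igfals had r = 0.847 and rho = 0.827 (permutation p 1e-05, the smallest possible, and 4e-05, adjusted 4.5e-04 and 9e-04), with rho 0.842 in HFD and 0.806 in 002MSXH. Leaving out the mice most distant from the Igf1 median gave r = 0.814, and without 002MSXH 4 and 6 rho was 0.798. Ghr followed Igfals (r = 0.743, rho = 0.741, adjusted permutation p 0.00525 and 0.00371) and Igf1 (r = 0.678, rho = 0.675, adjusted permutation p 0.00977 and 0.0109), with rho 0.740 and 0.670 without 002MSXH 4 and 6. Neither passed when the other 18 arrays were also centred (rho 0.606 and 0.552, adjusted permutation p 0.0969 and 0.122), and Ghr with Igfals had rho 0.1995 after quantile normalization of all arrays. Relations as strong as these were common for Ghr, since 2.88% of all genes had a rho with it at least as far from 0 as Igfals and 5.26% as Igf1. Relations of Igf1 depended on scaling: rho with Igfals was 0.399 after centring and 0.1995 after quantile normalization, which left Igf1 and Ghr with 2 distinct values each on the 20 arrays.

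Socs2 stood between both groups, with rho 0.690 to Igf1 and 0.680 to Igfals (r = 0.660 and 0.670, adjusted permutation p 0.00977 for each r and 0.00855 for each rho). A rho as far from 0 was about as common as for Ghr, in 2.53% and 2.91% of all genes, and in 4.74% for Cish with Igfals. Without 002MSXH 4 and 6 these were 0.587 and 0.596 and no longer passed (adjusted permutation p 0.0748 for each). Cish and Igfals had rho 0.618 (adjusted permutation p 0.0234; 0.538 and no longer passing without 002MSXH 4 and 6) but r = 0.499 (adjusted permutation p 0.0904), and leaving out the mice most distant from the Cish median gave r = 0.413. Stat5a and Stat5b had r = 0.517 and rho = 0.460 (adjusted permutation p 0.0891 and 0.162). Jak2 passed with none of the other 9 genes, and neither did Igfbp3.

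**Figure D4:**
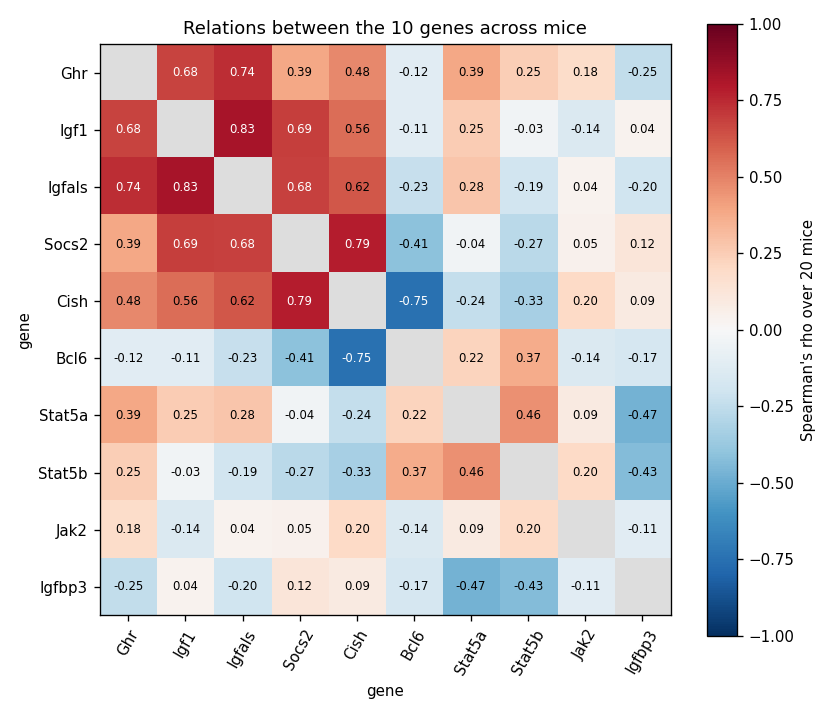
Spearman's rho over the 20 mice for each of the 45 pairs of the 10 genes, from -1 (blue) to 1 (red), with the value printed in each cell. Ghr, Igf1, Igfals, Socs2 and Cish form a block of positive values, and Bcl6 is negative with Cish (-0.75).

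The genes nearest to 4 members in rank over mice were listed as a description, over 20 mice and 1 probe set per gene. For Cish these were Alas1, the first enzyme of heme synthesis (rho 0.872), Sftpa1 (0.830) and Ift22 (0.826). For Socs2 they were Slc25a30 (0.938), Plcxd2 (0.901) and Gm16551 (0.892). Ghr was nearest to Nadk2, the mitochondrial NAD kinase (0.965), Hsd3b2 (0.959) and Isoc1 (0.944), and Igf1 to Mtpn (0.892), Tpp2 (0.883) and Acsm1 (0.869). No gene was among the nearest of more than 1 member.

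Pulsed growth hormone keeps a set of male-biased liver genes on and a set of female-biased genes low, so both sets were read in the same fit. Of 15 male-biased genes measured, 14 were lower in mean in 002MSXH, against 45.3% of all genes, with a median standardized difference of -0.59. The list did not stand out from all genes under either scaling of all arrays. Its median was -0.76 after centring, beside -0.75 over all genes, and -0.45 after quantile normalization, beside -0.57. Without 002MSXH 4 and 6 and with no scaling it was -0.55, beside 0.07. In this list 1 gene had an unadjusted p under 0.05 (4.31% of all genes were lower at that p) and none passed after adjustment. The same mouse was the lowest of its diet in 10 of the 15 genes in HFD (HFD 9) and in 10 of the 15 in 002MSXH (002MSXH 7), and the list's median was -0.67 without HFD 9 and -0.39 without 002MSXH 7. Moxd1, a monooxygenase family gene, had the smallest p: it ran from 7.653 to 7.820 in HFD with a median of 7.761 and from 7.614 to 7.800 in 002MSXH with a median of 7.646. The median 002MSXH mouse lay below all HFD mice, while the highest reached into the upper part of the HFD range, and the difference was -1.09 (-2.02 to -0.13; limma adjusted p 0.372). Cyp7b1, an oxysterol hydroxylase, stood at -0.91 (adjusted p 0.467). Of 13 female-biased genes, 9 were lower and 4 higher in mean, with a median of -0.27 and none at an unadjusted p under 0.05. Their genes of smallest p were the sulfotransferase Sult3a1 at -0.89 and Prom1 at -0.56, both at levels below the median of every array. Cyp2b9, Cyp2b13, Cyp3a44, Abcd2 and Hao2 of this list also lay below it. Over genes above the median gene, the median of the female-biased list was 0.26 instead. Acot3, with means of 6.893 in HFD and 6.887 in 002MSXH, was left out there too. That median is over Cux2, Trim24, Cyp17a1, Cyp39a1 and Ntrk2 only.

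Levels of Socs2, Cish and Bcl6 were next set against the pathway genes over mice. These relations, 69 pathway genes with each of Socs2, Cish and Bcl6, were added after those between the 10 genes had been seen, and 19 of 207 passed an adjusted p of 0.05 by both r and rho. Of all genes, 5.68% had a rho with Socs2 as far from 0 as the weakest passing relation of Socs2, and 4.47% as that of Cish. Spearman's rho with Socs2 was above 0 for 14 of the 15 male-biased genes, against 47.1% of all genes, and 5 of them passed. Nudt7, a peroxisomal hydrolase, had the largest rho with Socs2 (r = 0.775, rho = 0.797, adjusted permutation p 0.00466 and 0.0031), and 0.324% of all genes had one as far from 0. Ugt2b38 (rho 0.777), Hsd3b5, a male-specific steroid dehydrogenase (0.734), the transporter Slco1a1 (0.732) and Cyp7b1 (0.681) passed as well, with a rho as far from 0 in 0.528%, 1.27%, 1.29% and 2.83% of all genes. For Slco1a1 rho was 0.186 after quantile normalization. Spearman's rho with Cish was also above 0 for 14 of 15, and Ugt2b38 (0.759), Nudt7 (0.701), Hsd3b5 (0.693) and C8b (0.623) passed, with shares of 0.412%, 1.42%, 1.63% and 4.47%. For C8b rho was 0.219 after quantile normalization and 0.410 after centring without 002MSXH 4 and 6. In each diet, 10 of the 15 male-biased genes shared their lowest mouse. Socs2 and Cish also varied together, so the counts of 14 of 15 are not counts of separate agreements.

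Of the female-biased list, Cyp17a1, a steroid hydroxylase and lyase, and Cyp39a1, an oxysterol hydroxylase, went the opposite way. Cyp17a1 had rho -0.779 with Cish and -0.719 with Socs2 (adjusted permutation p 0.0031 and 0.00994), with -0.733 in HFD and -0.891 in 002MSXH for Cish. Cyp39a1 had rho -0.710 with Cish and -0.711 with Socs2. Acot3 was the exception of that list that passed in the positive direction, with rho 0.617 to Socs2 (5.68% of all genes as far from 0). Bcl6 passed with none of the 69 genes by both measures, although its rho was below 0 with each of the 15 male-biased genes, where 53.8% of all genes were above 0. That count, too, is not one of separate agreements. Onecut1, the liver transcription factor HNF6, known to respond to growth hormone, was in neither sex-biased list. It was among the genes linked to growth hormone resistance in fasting, and had the strongest relation of the family. Its rho was 0.856 with Socs2 and 0.811 with Cish (adjusted permutation p 0.00207 and 0.0031), as far from 0 as in 0.044% and 0.110% of all genes. Onecut1 itself ran from 7.099 to 7.414 in HFD and from 7.089 to 7.277 in 002MSXH and differed by -0.61 between diets (limma adjusted p 0.638).

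**Figure D5:**
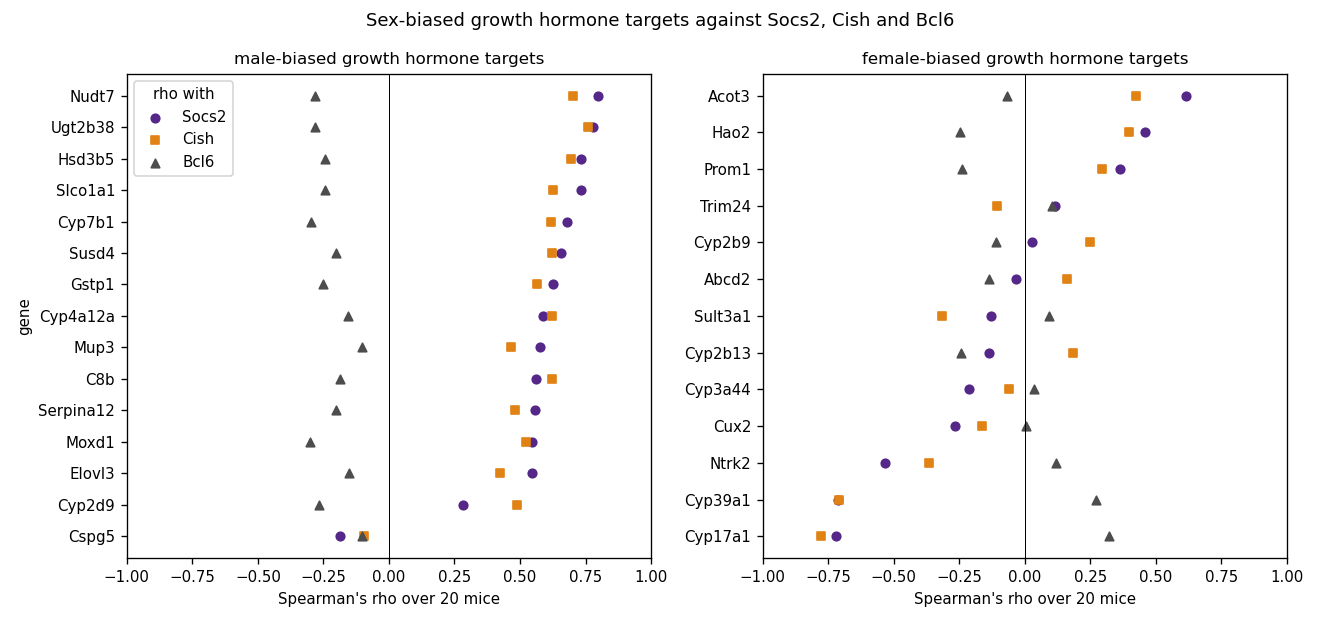
Spearman's rho over the 20 mice of 15 male-biased (left) and 13 female-biased (right) growth hormone targets with Socs2, Cish and Bcl6. On the left, Socs2 and Cish points lie above 0 for all genes but Cspg5 and all Bcl6 points lie below 0, while on the right the signs are mixed, with Cyp17a1 and Cyp39a1 lowest. On the right, Cyp2b9, Cyp2b13, Cyp3a44, Sult3a1, Abcd2, Hao2 and Prom1 are at levels below the median of every array. Cspg5 on the left also lies below it.

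Among the other IGF genes, 6 of 12 were lower and 6 higher in mean, and none passed after adjustment. Igfbp1, an IGF carrier that fasting raises in liver, ran from 12.011 to 12.059 in HFD with a median of 12.038 and from 12.005 to 12.041 in 002MSXH with a median of 12.023. The groups overlapped, with 002MSXH lower by -1.11 SD (-2.05 to -0.15; limma p 0.0202, adjusted 0.368). Igfbp4 stood at 1.14 (adjusted p 0.356), and turned under centring (-0.72). Among 17 partners and brakes of JAK-STAT signalling, 11 were higher in mean and 4 had an unadjusted p under 0.05, all higher (6.58% of all genes were higher at that p). Of these Stat6 stood at 1.16 and the phosphatase Ptpn6 at 1.13 (adjusted p 0.356 and 0.371), and both turned under centring and quantile normalization of all arrays. Socs3, a brake on cytokine receptors, stood at -0.61 (adjusted p 0.644) and followed Socs2 and Cish over mice (rho 0.735 and 0.683, adjusted permutation p 0.00736 and 0.0167). Grb2, an adaptor of receptor signalling, ran opposite to Socs2 (rho -0.681, adjusted permutation p 0.0159), with rho -0.251 after centring and 0.125 after quantile normalization. Of 12 genes linked to growth hormone resistance in fasting, 9 were lower and 3 higher in mean and none had an unadjusted p under 0.05; Fgf21, the fasting hormone that can lower STAT5 signalling, stood at -0.22 and the deacetylase gene Sirt1 at -0.62.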

How the data were processed

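Total RNA of 20 livers was biotin-labelled for Affymetrix 3' arrays, per the labels' protocols. The values the authors deposited are taken as log2 levels per probe set (5.17 to 15.01, none missing); the log base and how probes were corrected, normalized and combined are not stated in labels or headers. Of 45101 probe sets 34958 had 1 symbol; for each of 18193 genes the probe set of highest mean was used, with no filter on level. The number of arrays limits the precision.

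Groups came from the sample titles. The diets were compared with limma 3.58.1 in R 4.3.3 (lmFit, eBayes with trend, two-sided, Benjamini-Hochberg over all genes at 0.05). Permutation tests used 100000 permutations (Python 3.11.15, numpy 2.4.6, scipy 1.17.1). In simulated data of 18193 genes limma recovered 2%, 20%, 52% and 100% of genes shifted by 1, 1.5, 2 and 3 SD, with 2 unchanged genes called. The simulated noise was normal and independent between genes, with no array standing apart. These shares therefore do not give the recovery to be had in the deposited values. Named genes are the 10 members, the 2 genes of smallest p of each pathway list and the 3 nearest genes of Ghr, Cish, Socs2 and Igf1. Genes named from the relations, Socs3, Fgf21, Cspg5 and the cell type genes were chosen after their values were seen. The members and lists were chosen with earlier results of these data known. Promoters are RefSeq's for GRCm38.p6. Nothing in the labels says which mice shared a cage or a processing day. Mice that share a replicate number correlated from -0.265 to 0.165, so no pairs were modelled.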

Additional observations from a re-analysis of the deposited data

Results flagged for a closer look

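In 5 of the 40 sets of 10 mice looked at, for the 20 genes named in the diet comparison, 1 mouse lay far from the others of its diet, where about 1 in 20 such sets would be marked by chance. The gap to the nearest mouse is given as a share of the diet's range. Jak2 in HFD 2 stood at 7.680725 against 7.680907 for the next mouse, a share of 0.638. Cish in 002MSXH 1 stood at 7.1327 against 7.1157, a share of 0.548, and Bcl6 in the same mouse at 7.8852 against 7.9193, a share of 0.497, so that 1 mouse held the highest Cish and the lowest Bcl6 of its diet. Igfals in HFD 9 stood at 8.3896 against 8.3962, a share of 0.536. Igfbp4 in HFD 2 stood at 13.11049 against 13.11047, a share of 0.488.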

How the results depend on the processing

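The directions of Socs2, Cish, Bcl6 and Igfbp3 held under every alternative run. Igf1 stayed lower in 002MSXH where its values differed between arrays. Quantile normalization left it with 2 distinct values on the 20 arrays. Without 002MSXH 4 and 6 it left Igf1 with 1 distinct value, and so with no direction. Array scaling moved all genes: the median standardized difference was 0.07 as deposited, -0.57 after quantile normalization and -0.75 after centring each array on its median. The settings that leave out 002MSXH 4 and 6, and the relations with pathway genes, follow from having seen these data. No depth is defined for arrays. The cause of each change below was not tested.

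After quantile normalization the values were -0.45 for Ghr, -0.30 for Jak2, -0.63 for Stat5a, -0.20 for Stat5b, -0.65 for Ptpn6, 0.060 for Sirt1, -0.48 for Stat6 and 0.45 for Sult3a1. Ghr had 2 distinct values on the 20 arrays in that setting. Its value and that of Sult3a1, equal in size, are not read as directions. The list medians were then -0.52 for IGF binding and receptors and -0.36 for JAK-STAT partners, rho of Socs2 with Grb2 was 0.13 (-0.68 as reported), and 4 relations between the 10 genes passed, all 4 among the reported, against 8 by Spearman's rho as reported. After centring the values were -0.40 for Ghr, -0.73 for Jak2, -0.55 for Stat5a, -0.67 for Stat5b, -0.72 for Igfbp4, -0.72 for Ptpn6 and -0.72 for Stat6. The list medians were -0.75 for IGF binding, -0.74 for JAK-STAT partners and -0.75 for female-biased genes, and 16 relations passed, of which 6 are among the 8 reported.

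Without 002MSXH 4 and 6 the IGF binding median was -0.44 and 5 relations passed. With quantile normalization as well, the values were 0.034 for Igfals, -0.20 for Ptpn6 and 0.64 for Sirt1. There were then 0 of the 10 members under an unadjusted limma p of 0.05, and 2 relations. Ghr had 1 distinct value on these 18 arrays, so that its -0.42 gives no direction. Igfbp4 and the IGF binding median had the same -0.42 and are not read as directions either. With centring as well they were -0.36 for Jak2, -0.14 for Stat5b, -0.30 for Igfbp4, -0.29 for Ptpn6, -0.30 for Stat6, -0.43 for IGF binding and -0.39 for JAK-STAT partners, with 1 of the 10 genes and 2 relations.

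With probe sets averaged per gene Ghr was -0.0031, Jak2 -0.16 and 1 gene passed; with the probe set of largest SD Igfbp4 was -0.15. Over genes above the median gene the list medians were -0.50 for IGF binding and 0.26 for female-biased genes. At an adjusted p of 0.10, 12 genes passed. Leaving out 1 mouse at a time gave 0 to 3 genes called, 2 to 5 members under an unadjusted p of 0.05, and -0.21 to 0.32 for Jak2. List medians then ran from -0.23 to 0.21 for IGF binding, 0.19 to 0.41 for JAK-STAT partners, -0.68 to -0.39 for male-biased, -0.43 to -0.20 for female-biased and -0.31 to -0.08 for fasting genes.

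With the replicate number as a block, 0 genes were called and 3 of the 10 had an unadjusted p under 0.05; Stat5a was 1.04, Socs2 -1.02, Cish -0.91, Bcl6 0.80 and Igfbp3 -1.43. The block changed no call.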
